A study of Oryza sativa with 6 samples.

Results

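The gibberellin genes described here are 6 rice loci picked out by locus number, a choice made with earlier results of these data known: SD1, D18, EUI1, GID1, GID2 and SLR1. Together they held 7 of the 29513 peaks in the deposited list of PIF4-GFP chromatin immunoprecipitation (ChIP) peaks, and 5 of the 6 had at least 1 peak. Only SLR1 also had a row among the 1177 genes of the expression tables. The study's 6 libraries came from leaves of rice grown in pots for 3 weeks under drought and fluctuating light. In 3 of them the plants overexpressed PIF4-GFP, and the other 3 were the GFP mock, with the same light, drought and age. PIF4 is a basic helix-loop-helix transcription factor that acts below the phytochrome light receptors, and GFP is the tag by which it can be precipitated. The labels give each library a numbered genotype and do not say whether these are separate lines, plants or pots, so the replicate spread behind each p-value may be technical. Which promoter drives the transgene is not stated in the labels. The series is called ChIP sequencing, but its sample labels name total RNA as the molecule. The tissue could not be checked against leaf markers, since 0 of 4 marker loci for Rubisco and light-harvesting proteins had a row in the tables.

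Gibberellins are growth hormones that lengthen stems and leaves. Oxidases build the active forms and other enzymes inactivate them. The active hormone binds the receptor GID1, which then takes hold of the DELLA protein SLR1, a repressor of growth. An SCF ubiquitin ligase carrying the F-box protein GID2 then marks SLR1 for destruction. In Arabidopsis, DELLA proteins bind PIF4 and keep it from DNA. The names of the 6 loci were checked as far as the files allow. The expression tables describe the SLR1 locus as OsGAI, which RefSeq (assembly ASM3414082v1) lists as a synonym of SLR1. RefSeq held genes under 5 of the 6 names, all on the chromosome of the locus, and none under D18. It carried the name GID2 on a pair of genes with overlapping spans, 1 of them also named GF14E, a 14-3-3 protein. The pair was matched by name and chromosome only, so which of them the GID2 locus stands for was not tested.

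The peak list gives a position, a class and a distance to the annotated start for each peak, all of them the authors' own values, with no score and no peaks of the GFP mock. Peak names begin with PIF4-GFP1 throughout, and the labels do not say whether that is replicate 1 or the line. Values of peaks therefore have no replicate error. Widths follow a grid of 200 bp, except for 1 peak, so edges are known only to that grid. The rice build of the coordinates is not stated in the files or labels. Distances are signed, and a positive one places the peak's centre downstream of the start. The start itself was worked out from centre, strand and distance, to within 1 bp.

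All 5 genes with a peak had a peak classed as promoter, which is 5 of the 6 members. Among the 1177 genes of the expression tables, mostly transcription factors, 71.8% had a promoter peak (95% Wilson interval 69.2 to 74.3%, for counting error only). A peak of any class was assigned to 77.4% of them, and to the same 5 members. With so few genes, a count of 5 of 6 lies near either background. All 5 promoter peaks were centred downstream of the start, as were 69.2% of all 23278 promoter peaks. Their median width was 2800 bp, against 1400 bp over all promoter peaks, and it spanned 400 to 4000 bp.

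**Figure D1:**
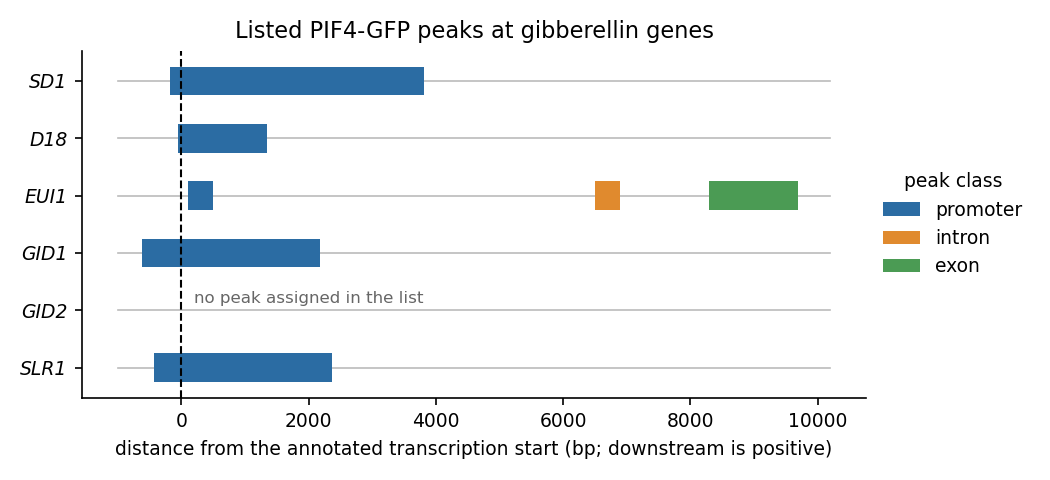
Listed PIF4-GFP peaks at the 6 gibberellin genes, drawn to scale against the distance from the annotated start in bp, with colours for the peak class. The SD1, D18, GID1 and SLR1 peaks lie over the start and run downstream, EUI1 has 3 separate peaks, and GID2 has none assigned.

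Of the genes that make active gibberellin, SD1 carried the widest peak of the 6 genes. SD1 encodes the GA20 oxidase whose loss gave the semi-dwarf rice of the green revolution. Its peak at LOC_Os01g66100 lay on chromosome 1 from 38382200 to 38386199, on a gene of the plus strand. At 4000 bp it was wider than 92.9% of all promoter peaks, and 6.11% were wider still. The peak began 182 bp upstream of the start and ended 3817 bp downstream, and 0.945% of promoter peaks reached further downstream. Its centre, 1817 bp downstream, came close to the largest downstream distance of the promoter class, 1999 bp. It is therefore a promoter peak by its class, while 95.4% of its width lay downstream of the start.

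The last activating step is taken by D18, the GA3 oxidase whose loss gives severe dwarfs. At LOC_Os01g08220 on the minus strand of chromosome 1, the peak ran from 4003600 to 4004999. Its 1400 bp equalled the median width of promoter peaks. It reached only 53 bp upstream of the start and 1346 bp downstream, with the centre 647 bp downstream. Among all promoter peaks 82.1% reached further upstream, and 26.7% reached further downstream. SD1 and D18 thus shared an upstream edge close to the start and differed in how far they ran downstream. Both upstream distances, 182 and 53 bp, are smaller than the 200 bp grid of the edges. The spans of these genes are not in the files, so how much of either peak lies in the gene was not tested.

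The inactivating enzyme EUI1, a cytochrome P450 whose loss elongates the uppermost internode, had a different layout. Its locus LOC_Os05g40384 on the plus strand of chromosome 5 carried 3 peaks, of 3 classes. The promoter peak, from 23728600 to 23728999, was 400 bp wide and centred 297 bp downstream of the start. By its listed edges it began 98 bp downstream and did not contain the start itself, whereas 87.2% of all promoter peaks did. That offset is smaller than the 200 bp grid of the edges, so whether the start is covered is not settled. Only 0.503% of promoter peaks were narrower and 94.6% were wider.

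A second EUI1 peak, in intron 1 of 1, lay from 23735000 to 23735399 and was also 400 bp wide, centred 6697 bp downstream of the start. The third, in exon 2 of 2, lay from 23736800 to 23738199, was 1400 bp wide and was centred 8997 bp downstream. It was wider than 66.1% of the 2227 listed exon peaks, and 4.49% of these reached further from their start. The gaps between the 3 peaks were 6000 and 1400 bp. Over the whole list, 1.91% of the 24592 loci had more than 2 peaks, and 111 loci (0.451%) had a promoter, an intron and an exon peak. The EUI1 exon peak ended 800 bp before the next listed peak, from 23739000 to 23739799, at the promoter of the neighbour LOC_Os05g40400. That gap equals the smallest between any peaks in the list, and how many other gaps have this size was not counted.

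On the signalling side, the receptor gene GID1 and the repressor gene SLR1 had promoter peaks of the same width. The GID1 peak at LOC_Os05g33730, on the plus strand of chromosome 5, ran from 19867800 to 19870599. It was 2800 bp wide, wider than 82.0% of promoter peaks, and centred 780 bp downstream of the start. It reached 619 bp upstream, the furthest of the 5 genes, and 2180 bp downstream. The SLR1 peak at LOC_Os03g49990, on the plus strand of chromosome 3, ran from 28512200 to 28514999 and was also 2800 bp wide. Its centre lay 974 bp downstream of the start, and it reached 425 bp upstream and 2374 bp downstream. Among all promoter peaks 7.53% reached further downstream than the SLR1 peak and 9.93% further than the GID1 peak.

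GID2 (LOC_Os02g36974, chromosome 2) had no peak of any class assigned to it. By locus number its listed neighbours were LOC_Os02g36960, with a promoter peak from 22330000 to 22334199, and LOC_Os02g36990, with a peak at its transcription end from 22338800 to 22339399. The first of these was 4200 bp wide. Their peak numbers followed each other directly, so 0 numbers were missing between them, and the stretch between the peaks was 4600 bp. The position of GID2 is not in the files, so whether either neighbouring peak covers it was not tested. An absent row says only that no listed peak was assigned to the locus.

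Peak numbers run in the order of position along each chromosome, and only 49.2% of the numbers up to 60035 occur in the list, none of them classed as intergenic. Upstream of SD1, 8 numbers were missing over the 49200 bp to the next listed peak, at the transcription end of LOC_Os01g66050. On its other side 0 were missing over 4400 bp, up to the promoter peak of LOC_Os01g66110. For D18, 1 number was missing over the 7000 bp towards lower coordinates and 3 over the 28400 bp towards higher ones. GID1 had 2 missing towards lower and 5 towards higher coordinates, and SLR1 had 2 and 3. EUI1 had 3 missing on the side of its start and 0 beyond its exon peak. The files do not say what the missing numbers stand for.

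**Figure D2:**
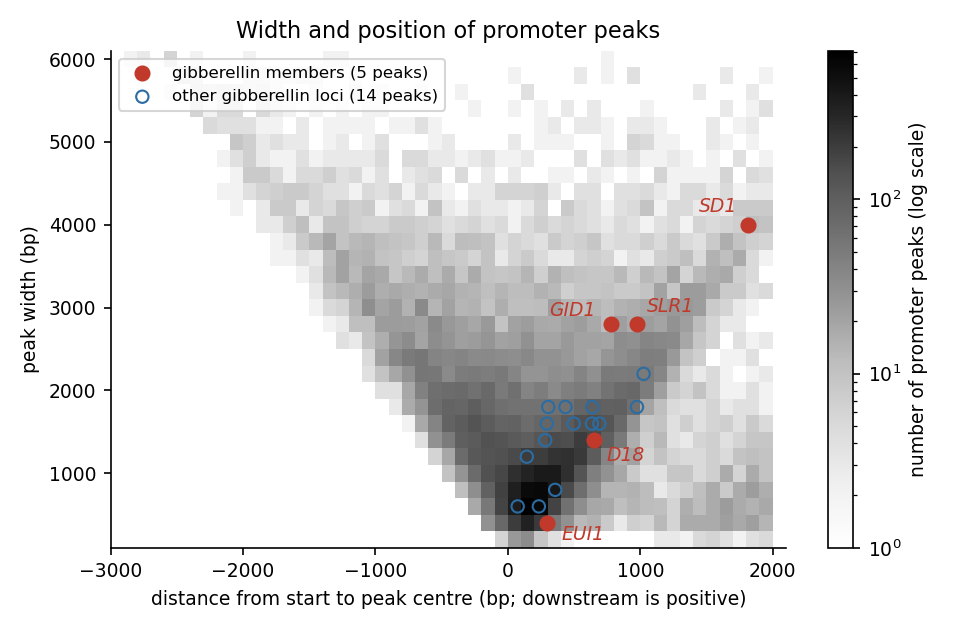
Width (bp) of promoter peaks against the distance from the start to the peak's centre (bp), with the number of all listed promoter peaks in grey on a log scale, the 5 members as filled points and 14 peaks of other gibberellin loci as open circles. Of the 23278 promoter peaks 405 fall outside the axes. All 19 marked peaks lie right of 0, and SD1 stands near the downstream limit of the class at 1999 bp.

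The shape of the 5 promoter peaks was compared with that of all promoter peaks, as a description with no test. In all 5, more than 75% of the width lay downstream of the start, from 77.9% in GID1 to 100% in EUI1. In the list as a whole 44.2% of promoter peaks had such a share, and the median share was 70.2%. The upstream edge lay within 200 bp of the start in SD1, D18 and EUI1, which is 3 of 5, and in 31.1% of all promoter peaks. This limit equals the grid of the edges, and it and the 75% were chosen after the values were seen. Some promoter peaks of other gibberellin loci, described below, met both limits, such as that of GAMYB (164 bp upstream, 89.7% downstream). Others met neither, so the layout is not particular to the members. The median promoter peak reached 341 bp upstream and 813 bp downstream. GID1 and SLR1 went past both medians, and SD1 and D18 only past the second.

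A wider list of 23 further loci covered the rest of the pathway: early synthesis, other GA20 and GA3 oxidases, the GA2 oxidases that inactivate gibberellin, and signalling. The files pair only 2 of these loci, SLRL1 and GAMYB, with a name. For the other 21 the role rests on the list alone, so they are given by group. Promoter peaks were assigned to 14 of the 23 (60.9%), against the background of 71.8%. This difference was not tested, the loci are few, and the background genes are mostly transcription factors. A peak of any class was assigned to 15, against the 77.4% of the table genes, and 8 had none assigned. These counts go by assigned locus only: SLRL1, among the 8, lay under a peak assigned to a neighbour, as described below.

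In the early steps, which make and oxidise the kaurene skeleton, 3 of 4 loci had a promoter peak, 600 to 1600 bp wide and centred 234 to 691 bp downstream of the start. Of these, 2 had further peaks inside the gene. Among the other GA20 and GA3 oxidases 2 of 4 had a promoter peak, both 1800 bp wide, which is narrower than the 4000 bp of SD1 and wider than the 1400 bp of D18. Of the GA2 oxidases 6 of 10 had a promoter peak, from 600 to 2200 bp wide, 1 had an exon peak only and 3 had none assigned. Among the signalling loci 3 of 5 had a promoter peak, 1600 to 1800 bp wide. All 14 promoter peaks of this list were centred downstream, at a median of 396 bp, against 780 bp in the members and 198 bp over all promoter peaks. The 14 had a median width of 1600 bp, against 2800 bp in the members and 1400 bp over all promoter peaks. By listed edges 13 of the 14 contained the start, and in the members 4 of 5.

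SLRL1 and GAMYB could be placed by their positions in the expression tables, as could SLR1. GAMYB, a MYB factor that acts downstream of SLR1 in the aleurone and anther, had a promoter peak at LOC_Os01g59660 on chromosome 1 from 34508200 to 34509799. The peak was 1600 bp wide, centred 635 bp downstream of the start, and covered 31.4% of the gene's span from 34508452 to 34512738. The SLR1 peak covered 96.3% of the gene's span, from 28512754 to 28515086, and ended 87 bp before the gene did. The start in the tables lay 129 bp downstream of the start behind the list's distance for SLR1, and 88 bp downstream for GAMYB.

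SLRL1 (LOC_Os01g45860), a relative of SLR1 that lacks the DELLA motif, had no peak assigned, yet its whole span lay under a peak. The gene lies on the minus strand of chromosome 1 from 26044168 to 26045843. A peak of 5400 bp, from 26041600 to 26046999, contained all 1676 bp of it, with 2568 bp to spare on the side of lower coordinates and 1156 bp on the other. The list gives this peak to the plus-strand neighbour LOC_Os01g45850, as a promoter peak centred 1225 bp downstream of that gene's start. Of the 266 table genes without an assigned peak, 59 (22.2%) were overlapped by a peak assigned to another locus. In the other direction, 38 of 911 genes with an assigned peak were overlapped by none.

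**Figure D3:**
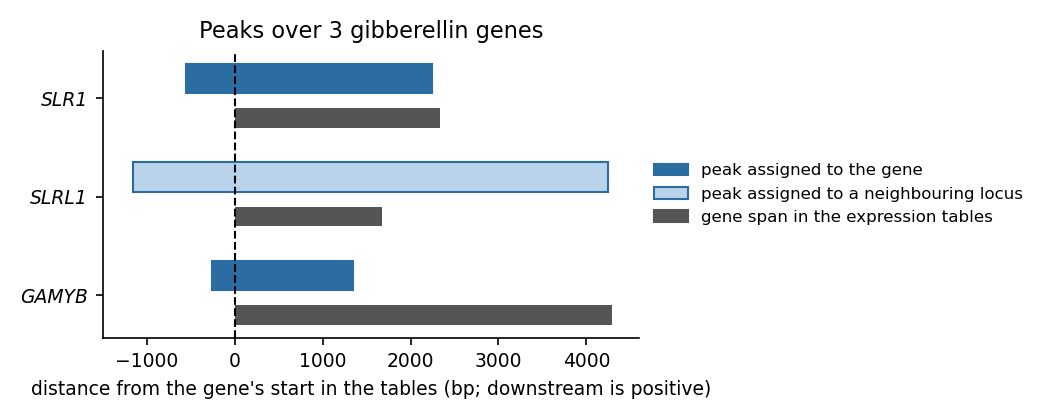
Peaks (upper bars) and gene spans from the expression tables (lower bars) of SLR1, SLRL1 and GAMYB, against the distance from the gene's start in the direction of transcription, in bp. The peak over SLRL1 covers the whole gene but is assigned to a neighbouring locus, the SLR1 peak covers 96.3% of its gene and the GAMYB peak 31.4%.

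Of the 6 genes, SLR1 alone labels a row in which PIF4-GFP and GFP mock levels could be compared. The deposited values are FPKM, reads scaled by gene length and by the reads of the library. In all 917 rows with values in 4 or more libraries, the values resolved into whole reads (within 0.0001 of a read), with 1 length for the row and 1 total for each library. The totals were 16247094 to 17919095 reads in PIF4-GFP and 14933740 to 15324492 reads in GFP mock. Of the 917 row lengths 916 were multiples of 3, and the lengths showed no relation to the genes that label the rows. In 191 of the 917 rows (20.8%) the length exceeded the whole span of the named gene, and across rows the rank correlation of length and span was 0.0235. The SLR1 row had a length of 1149 bp for a span of 2333 bp, SLRL1 450 bp for 1676 bp and GAMYB 3183 bp for 4287 bp. Each value below is thus that of a row with a label, and whether it is the transcript of the named gene was not tested.

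The row labelled SLR1 had 64.3, 65.9 and 65.4 FPKM in PIF4-GFP, against 69.5, 66.4 and 68.9 FPKM in GFP mock. All 3 PIF4-GFP values lay below all 3 GFP mock values, although the nearest pair differed by less than 1 FPKM. Such a gap, lower in PIF4-GFP, was found in 67 of 847 rows (7.91%). The means were 65.2 ± 0.802 FPKM in PIF4-GFP and 68.3 ± 1.67 FPKM in GFP mock (SD, n = 3 each). On the log2(FPKM + 1) scale the difference was -0.06 (SE 0.07, 95% interval -0.22 to 0.09, limma adjusted p = 0.895 over 847 rows). An exact permutation test gave p = 0.1, two-sided, the smallest that 3 against 3 libraries allow. The row held 1201 to 1357 reads in PIF4-GFP and 1158 to 1224 reads in GFP mock, and counting error alone is 2.71 to 2.94% of each value. The difference of the means, -4.46% of the GFP mock mean, was of the size of the whole table's: the median log2 difference over all rows was also -0.06, and in 79.5% of rows PIF4-GFP was the lower group. With all libraries set to a common median the SLR1 difference was 0.01, so its sign depends on the scale of the libraries.

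The row labelled SLRL1 had 12.9, 16.2 and 16.7 FPKM in PIF4-GFP, against 13.6, 13.2 and 11.8 FPKM in GFP mock. PIF4-GFP replicates 2 and 3 were above every mock library and replicate 1 lay within their range. The log2 difference was 0.23 (SE 0.11, 95% interval -0.02 to 0.47, limma adjusted p = 0.895; exact permutation p = 0.3, two-sided). These values rest on 94, 131 and 129 reads in PIF4-GFP and 94, 90 and 79 reads in GFP mock, with a counting error of 8.74 to 11.3% each. Without PIF4-GFP replicate 1 the difference was 0.34, and the limma adjusted p was 0.998. With all libraries set to a common median it was 0.31 (limma unadjusted p = 0.0206, adjusted p = 0.883). In the fit of all libraries 98.6% of rows had a more negative difference than the SLRL1 row.

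The row labelled GAMYB, the most abundant of the 3, had 389, 370 and 424 FPKM in PIF4-GFP, against 426, 389 and 415 FPKM in GFP mock. The groups overlapped. The log2 difference was -0.06 (SE 0.08, 95% interval -0.23 to 0.12, limma adjusted p = 0.895; exact permutation p = 0.4, two-sided), and it was 0.02 after centring of the libraries. Over the whole table limma called 0 of 847 rows (0%) at an adjusted p of 0.05 and 33 (3.9%) at an unadjusted p of 0.05. Voom on the recovered reads called 0 and 44. The unadjusted count depended on single libraries: it was 133 of 843 rows without PIF4-GFP replicate 3 and 23 of 843 without GFP mock replicate 3, with 0 rows past the adjusted threshold in both.

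**Figure D4:**
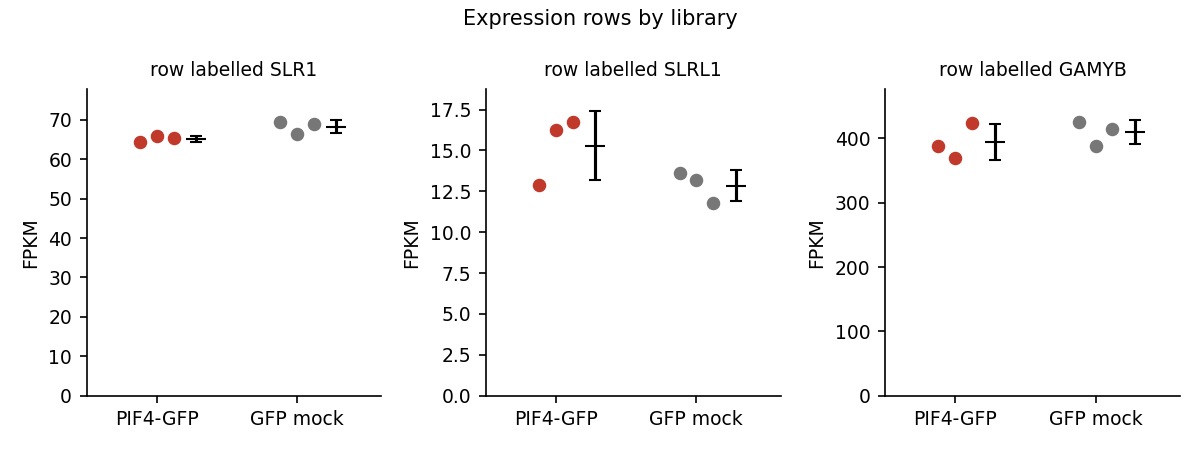
FPKM in each library for the rows labelled SLR1, SLRL1 and GAMYB, PIF4-GFP left and GFP mock right, with every axis starting at 0. Points are libraries, and bars give the mean and SD of 3. The SLR1 groups do not overlap and their means differ by -4.46% of the GFP mock mean, and the SLRL1 and GAMYB groups overlap.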

How the data were processed

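The authors deposited a peak list and 6 tables of FPKM values. Per the file headers, the list holds positions, classes and distances to the start, and no score. Bowtie 0.12.2, HISAT2 2.0, StringTie 1.3.0 and the mouse build mm8 appear in the submitters' processing notes without a stated role. The peak caller and rice build are not stated. The FPKM unit was taken from the values of the deposited tables, and reads, lengths and totals were worked out from their steps.

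Genes received the peaks listed under their locus number, and table genes also any peak sharing 1 base with their span. Groups were compared on the log2(FPKM + 1) scale with limma 3.58.1 (trended variance, R 4.3.3), two-sided, with Benjamini-Hochberg adjustment. Rows needed 1 FPKM or more in at least 3 libraries. The limma step and the read recovery were run on simulated data as a check of the code. The data simulated for limma had no shift common to all rows, unlike the deposited values. Python 3.11.15, pandas 2.3.3, scipy 1.17.1 and matplotlib 3.10.9 were used. The named genes are the 6 members and, of 23 further loci, those the files name. Members and lists were chosen with earlier results of these data known. No sequences were used here.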

Additional observations from a re-analysis of the deposited data

How the results depend on the processing

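The number of the 6 genes with a promoter peak was 5 with any class counted and 4 with a distance of at most 1000 bp (without SD1), a width of at least 1000 bp (without EUI1) or, chosen after seeing the data, a peak that contains the start (without EUI1). Under the same settings the further loci gave 15, 13, 11 and 13 in place of 14, and the background share was 77.4%, 60.2%, 57.7% and 61.3% in place of 71.8%.

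The row differences were recomputed under 11 settings each. SLRL1 kept its direction in all of them (0.16 to 0.34, adjusted p 0.449 to 0.999). SLR1 (adjusted p 0.551 to 0.999) and GAMYB (0.395 to 0.999) kept theirs in 10 and reversed with libraries centred on their median, to 0.0148 and 0.0212. Leaving out 1 library gave -0.08 to -0.05 for SLR1, -0.11 to -0.01 for GAMYB, 0.16 to 0.34 for SLRL1 and 0 to 2 called rows (2 without PIF4-GFP replicate 2). Without the same library the GAMYB difference was -0.01, and without PIF4-GFP replicate 3 it was -0.11. Same-numbered libraries of the groups had correlated deviations of 0.11, 0.16 and -0.09, and differently numbered ones of -0.27 to 0.20. These values do not settle whether the numbers mark pairs, and the main fit did not take them as pairs. With the replicate number as a block the differences stayed at -0.06, 0.23 and -0.06 (adjusted p = 0.68, 0.491 and 0.72 for SLR1, SLRL1 and GAMYB), and 1 row was called, against 0 (89 against 33 at an unadjusted p of 0.05). The peak list has no depth, score or replicate, which limits every value of a peak to a description.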
